A study of Mus musculus with 12 samples.

Results

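Nlrp3, Nlrc4, Aim2, Nod1, Nod2, Pycard, Casp1, Casp4 and Gsdmd were followed in the mouse cecum after a cautery injury. They were chosen by name, as 9 genes of cytosolic sensing and of the inflammasome, out of the 37074 gene names on the array, and they were read by 13 of its 56605 probes. RNA was taken from whole cecum of C57BL/6 mice, labelled male, in 4 groups of 3. The sham control was sampled at 0 h, and the other groups at 3, 12 and 72 h after cauterization of the cecum through a midline laparotomy. Sham tissue was taken directly after a sham operation, so cautery and the time since the operation cannot be told apart. Ages were not given in the sources used here. The study calls the 3 samples of a group biological triplicates, but the labels name no animals, so the p-values measure the spread between these samples.

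These proteins recognise microbial products and damage inside the cell. NLRP3, NLRC4 and AIM2 are sensors that, through the adaptor ASC (encoded by Pycard), recruit and activate caspase-1 in a complex called the inflammasome, NLRP3 answering to many kinds of membrane damage, NLRC4 to flagellin and secretion-system proteins bound by NAIP partners, and AIM2 to double-stranded DNA. NOD1 and NOD2 bind fragments of bacterial peptidoglycan and signal through RIPK2 to NF-κB. Caspase-11, the product of mouse Casp4, binds lipopolysaccharide in the cytosol. Both caspases cut gasdermin D (Gsdmd), whose fragment forms pores in the plasma membrane, and caspase-1 also matures IL-1β and IL-18. In the intestine the sensors are found in epithelial cells as well as in myeloid cells, and several of them, Nlrp3 above all, are known to be transcribed at a low level until NF-κB is activated.

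Levels are log2 intensities, corrected for background, from which the 75th percentile of the same array was subtracted, so that 1 unit is a 2-fold change. Levels of different probes cannot be compared with each other, since probes differ in brightness. A difference was called when the fold change was above 2 and the limma p-value was below 0.05 after Benjamini-Hochberg adjustment across the whole array. In whole tissue, fewer cells of a type and less RNA per cell cannot be told apart.

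Each array spot carried a DNA of 60 bases. The first 30 bases of the probes that decide how to read 3 of these genes are shown, 5′ to 3′, with their place in mm9, the build of the array files. For Gsdmd they lie in different stretches of the gene, for Nod2 they differed in brightness, and for Pycard only 1 is drawn from the RefSeq transcript.
Gsdmd, A_51_P172231, chr15:75697536-75697595, plus strand: tgctagaagaatgtggcctaaggctgcagg
Gsdmd, A_66_P106903, chr15:75695520-75695884, plus strand: tacgctgcctggagctttatgcttgaaggg
Nod2, A_51_P181691, chr8:91212170-91212224, plus strand: agcctttctttctgagcaaggtctttctgt
Nod2, A_66_P118762, chr8:91210529-91210588, plus strand: gcttcgagggaacacattctctttggagga
Pycard, A_51_P438821, chr7:135136241-135136300, minus strand: acctgcaaggactccctcctccaggccttg
Pycard, A_66_P121765, chr7:135140025-135140084, plus strand: cttattctgggaacaaagaggccaggtaga
The second Gsdmd probe spans 365 genomic bases and so skips over a gap in the genome, as a probe across a splice junction does. The second Pycard probe is annotated to a separate cDNA, on the strand opposite to Pycard, and is described apart from it. No member probe shared a run of 20 bases, on either strand, with an array probe of another gene name. The longest run shared by the Casp1 and Casp4 probes, which belong to related genes, was 6 bases.

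The promoters of the 3 genes called higher at 3 h, Nlrp3, Nod2 and Casp4, are shown next. Each line holds the 250 bases before a RefSeq transcription start of GRCm38.p6, 5′ to 3′ on the strand of the gene, and capitals mark matches to the 10-base NF-κB consensus. Nlrp3 has 2 listed starts, of which the one with a match is printed, and Casp4 has 2 starts that lie close together, of which the first is printed.
Nlrp3, chr11:59541319-59541568, plus strand: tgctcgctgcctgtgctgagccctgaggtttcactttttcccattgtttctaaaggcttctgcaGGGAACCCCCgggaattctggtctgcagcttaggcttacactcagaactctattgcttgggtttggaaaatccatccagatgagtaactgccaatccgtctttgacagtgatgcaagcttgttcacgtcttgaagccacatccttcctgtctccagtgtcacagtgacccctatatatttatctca
Nod2, chr8:88647097-88647346, plus strand: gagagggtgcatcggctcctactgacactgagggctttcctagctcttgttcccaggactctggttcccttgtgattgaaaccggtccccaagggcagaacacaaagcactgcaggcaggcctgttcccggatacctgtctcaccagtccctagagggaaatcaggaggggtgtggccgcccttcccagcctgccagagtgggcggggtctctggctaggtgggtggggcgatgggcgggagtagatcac
Casp4, chr9:5308599-5308848, plus strand: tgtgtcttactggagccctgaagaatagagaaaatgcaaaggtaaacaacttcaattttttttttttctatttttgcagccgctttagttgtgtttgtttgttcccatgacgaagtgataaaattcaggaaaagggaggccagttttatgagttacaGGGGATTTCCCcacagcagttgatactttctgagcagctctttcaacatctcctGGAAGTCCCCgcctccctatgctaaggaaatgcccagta
Promoters from 250 bases before to 50 after a start were listed for 8 of the 9 genes, Gsdmd being the 1 without an entry. Both strands were searched for the NF-κB consensus, for the STAT site TTCNNNGAA and for the interferon-type pair GAAANNGAA. The NF-κB consensus matched in Casp4 in 2 stretches, of which the first holds overlapping matches, and in Nlrp3 in 1. It was found in promoters of 9.55% of all 27025 genes with an entry. The STAT site matched 1 of the 2 Nod1 promoters and no other of these genes, against 9.55% of genes, and the interferon-type pair matched none of them, against 9.76%. A match is a description of letters and not a measured binding site.

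The share of probes well above background ran from 60.2% to 65.2% per array, and 0 spots were saturated. All probes of the 9 genes were well above background on all 12 arrays except the second Nod2 probe and the second Pycard probe, so 11 of 13 were. Sham, 3 h and 2 of the 12 h arrays shared 1 slide, and the third 12 h array and the 72 h arrays the other, so slide and 72 h can be separated only through that 1 array. The labels state male mice, but Xist was well above background on 12 of 12 arrays, and the Y-linked Ddx3y and Eif2s3y on 0, which did not match the labelled sex. Of other Y-linked genes, Uty was above background on 1 array and the brightest Kdm5d probe on 12, so the check was mixed.

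At 12 h the sensors Nlrp3, Nlrc4 and Nod2, the caspase gene Casp4 and the pore gene Gsdmd were all called higher than in sham, by between 2.21-fold and 8.29-fold. Pycard, by the probe of its RefSeq transcript, and Casp1, which encode the adaptor and the central protease of the canonical inflammasome, were called at no time, and neither was Aim2. At 3 h, 3 of the 13 probes were called higher, against 2.96% of all probes, and 0 lower, against 4.37%. At 12 h, 8 of 13 were called higher, against 3.85%, and 0 lower, against 5.08%. The 8 held both Nod2 probes, both Gsdmd probes and the opposite-strand probe named Pycard. This last probe and the dim Nod2 probe lost their calls under another background correction (normexp). By the brightest probe per gene, those higher at 12 h were Nlrp3, Nlrc4, Nod2, Casp4 and Gsdmd, against 4.1% of all 37074 genes. At 72 h, 2 of 13 were called higher, against 4.13%, and 0 lower, against 4.13%. At these times the 13 probes had median differences of 0.30, 1.20 and 0.46, against 0.06, -0.02 and -0.15 over the whole array.

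**Figure D1:**
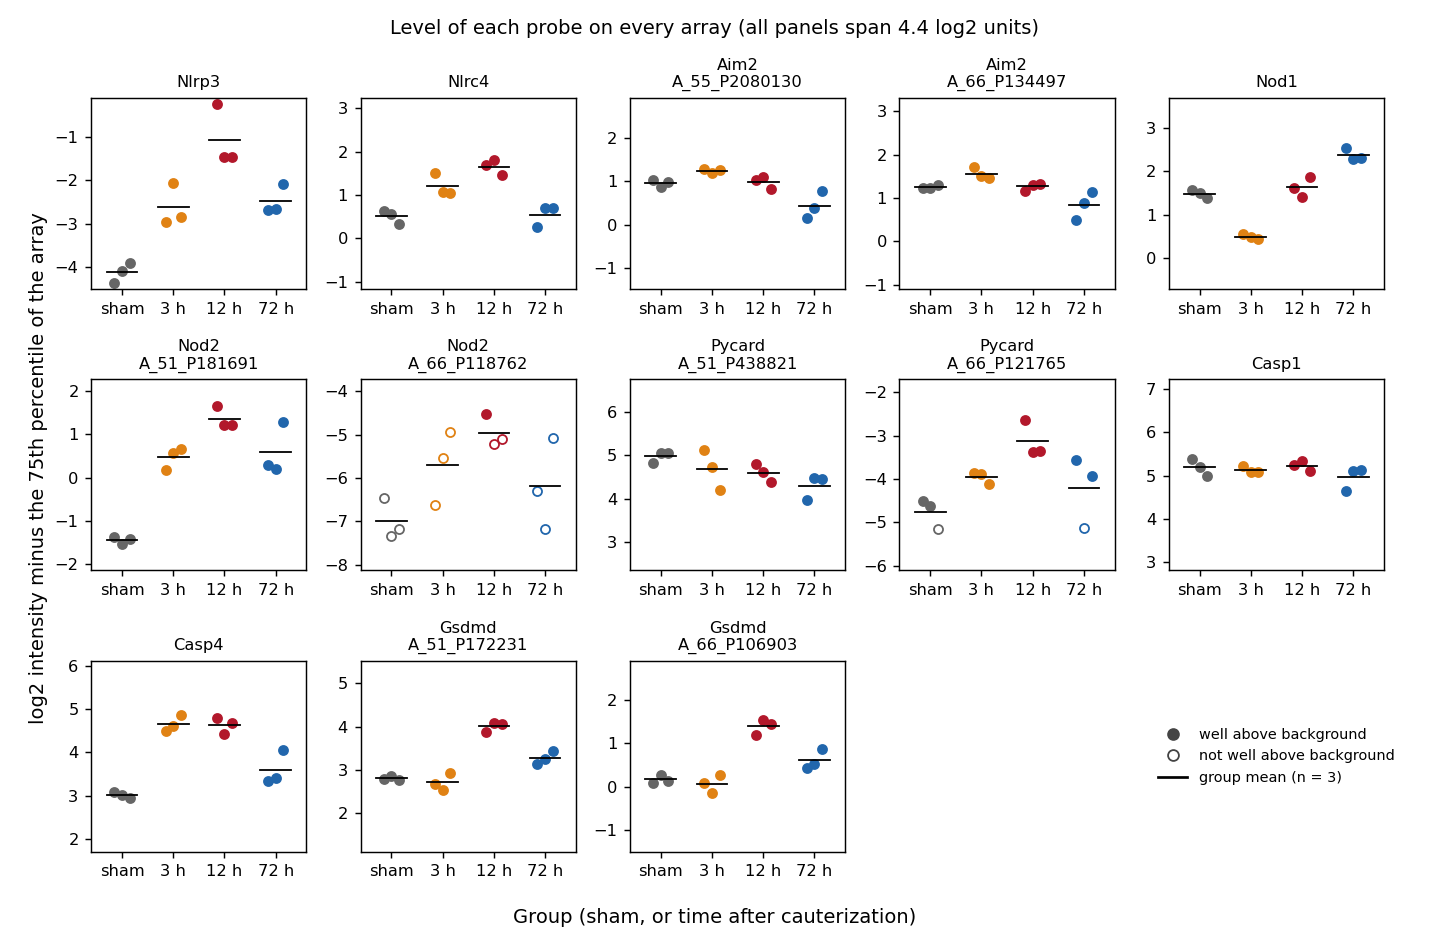
Level of each of the 13 probes on every array, in log2 units relative to the 75th percentile of that array, by group. Each point is 1 array, open where the spot was not well above background, bars are means of 3 arrays, and every panel spans the same number of log2 units. Nlrp3, Nod2, Casp4 and Gsdmd stand above sham on all 12 h arrays, while Casp1 overlaps sham at each time.

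Nlrp3, the sensor of membrane damage, was called higher than sham at all 3 times. Its levels in the sham arrays were -4.35, -4.08 and -3.89, close to the dimmest signals counted as above background on those arrays, -5.06, -5.08 and -4.93. They were -2.95, -2.06 and -2.84 at 3 h. At 12 h they were -0.25, -1.46 and -1.46, and at 72 h -2.69, -2.67 and -2.09. Every injured array was above every sham array, the 12 h arrays were above all others, and the first 12 h array was higher than the other two.

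The difference of Nlrp3 from sham was 1.49 ± 0.35 at 3 h (SE, n = 3 per group, adjusted p = 0.0159), 3.05 ± 0.35 at 12 h (adjusted p = 0.00029) and 1.63 ± 0.35 at 72 h (adjusted p = 0.01). These are folds of 2.81, 8.29 and 3.09. The call at 12 h held under every alternative except a test paired by replicate number. That test called 0 probes of the whole array at 12 h after adjustment. The call at 3 h was lost without sham replicate 1, where the difference was 1.37 (adjusted p = 0.0635), and without 3 h replicate 2, where it was 1.21 (adjusted p = 0.0552). With the slide as a block, the 72 h difference was 2.23 and no longer called (adjusted p = 0.0957). Under normexp background correction, which compresses dim signals, the differences shrank to 0.46, 1.19 and 0.34, and of these the one at 12 h was called.

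Nlrc4, the sensor of flagellin, was called against sham at 12 h and at no other time. Its levels were 0.64, 0.56 and 0.33 in sham and 1.52, 1.08 and 1.05 at 3 h. At 12 h they were 1.69, 1.81 and 1.46, and at 72 h they were 0.27, 0.70 and 0.69. The 3 h and 12 h arrays were all above sham, and the 72 h arrays overlapped sham. The difference was 0.70 ± 0.18 at 3 h (adjusted p = 0.0204), short of 2-fold. It was 1.14 ± 0.18 at 12 h (adjusted p = 0.00148), which was called, and 0.04 ± 0.18 at 72 h (adjusted p = 0.884). The NAIP proteins, which carry bacterial ligands to NLRC4, were measured through Naip1, Naip2, Naip5 and Naip6, of which none was called at any time, with differences of 0.25, 0.41, -0.03 and 0.34 at 12 h. The Naip genes are near-identical copies, so their probes may share signal.

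Aim2 was read by 2 probes that lie far apart along the gene, and they gave the same picture. On the first, sham arrays were at 1.02, 0.87 and 0.97, 3 h arrays at 1.29, 1.18 and 1.25, 12 h arrays at 1.02, 1.10 and 0.81, and 72 h arrays at 0.15, 0.39 and 0.77. The 3 h arrays were above and the 72 h arrays below all sham arrays, while 12 h overlapped sham, and the same held on the second probe. The probes differed from sham by 0.29 and 0.30 at 3 h and by 0.02 and 0.01 at 12 h. At 72 h the differences were -0.52 and -0.41, with adjusted p of 0.0396 and 0.089. None reached 2-fold. At 12 h the 95% intervals of the difference ran from -0.32 to 0.37 and from -0.33 to 0.35.

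The peptidoglycan sensors Nod1 and Nod2 differed from sham in opposite directions at 3 h. Nod2 levels on its bright probe were -1.36, -1.53 and -1.40 in sham and 0.19, 0.57 and 0.67 at 3 h. The 12 h arrays gave 1.65, 1.21 and 1.22, those at 72 h 0.28, 0.20 and 1.29. All injured arrays were above all sham arrays, and at 72 h the third array stood apart at the level of the 12 h arrays. Nod2 rose by 1.91 ± 0.27 at 3 h (3.75-fold, adjusted p = 0.00125), by 2.79 ± 0.27 at 12 h (6.93-fold, adjusted p = 0.000112) and by 2.02 ± 0.27 at 72 h (4.07-fold, adjusted p = 0.000877). With the slide as a block the 72 h difference was 2.24 and just missed the threshold (adjusted p = 0.0507).

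The dim Nod2 probe was well above background on 1 of 12 arrays, a 12 h array, and has only bounds elsewhere. It was called at 12 h (adjusted p = 0.0235), where its bound was 1.05-fold above sham. That bound is approximate, since only 1 of the 3 12 h arrays was well above background. This call was lost under normexp correction, where the difference was 0.07, and without sham replicate 2, sham replicate 3 or 12 h replicate 1.

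Nod1 levels were 1.57, 1.49 and 1.38 in sham and 0.55, 0.48 and 0.44 at 3 h. By 12 h the values were 1.61, 1.42 and 1.87, and by 72 h 2.54, 2.28 and 2.31. The 3 h arrays were all below and the 72 h arrays all above sham, and only 12 h overlapped it. The 3 h difference was -0.99 ± 0.13 (adjusted p = 0.000924), a 1.98-fold lower level that lay just under the 2-fold threshold and so was not called. It was called lower at -1.04 under quantile normalization, -1.10 and -1.01 when the scaling percentile came from probes above background or from all spots, -1.04 without sham replicate 3 and -1.02 without 3 h replicate 1. The 72 h difference of 0.90 ± 0.13 (1.87-fold, adjusted p = 0.00143) was also under 2-fold, and with the slide as a block it was 0.54 (adjusted p = 0.189).

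The adaptor gene Pycard was called at no time by the probe of its transcript. Its levels were 4.81, 5.04 and 5.06 in sham and 5.11, 4.73 and 4.20 at 3 h. Values of 4.80, 4.61 and 4.38 followed at 12 h and of 3.98, 4.48 and 4.44 at 72 h. The 12 h and 72 h arrays were all below the sham arrays, the 12 h arrays by a narrow margin, and 3 h overlapped sham. The differences were -0.29 ± 0.23, -0.37 ± 0.23 and -0.67 ± 0.23 at 3, 12 and 72 h, with adjusted p of 0.392, 0.311 and 0.0683. The 95% interval at 12 h ran from -0.89 to 0.14.

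The probe that carries the name Pycard on the opposite strand behaved otherwise. Its levels were -4.51, -4.62 and -5.16 in sham and -3.87, -3.88 and -4.11 at 3 h. At 12 h they were -2.65, -3.39 and -3.36, and at 72 h they were -3.57, -5.13 and -3.93. It was near background, with 2 of 3 sham and 2 of 3 72 h arrays above it, and all 12 h arrays were higher than all sham arrays. It rose by 1.63 ± 0.37 at 12 h (3.10-fold, adjusted p = 0.0108), while under normexp correction the difference was 0.27 and not called. This rise is not one of the RefSeq Pycard transcript.

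Casp1, the protease of the canonical inflammasome, overlapped sham at every time. Its levels were 5.38, 5.21 and 5.0 in sham and 5.22, 5.07 and 5.08 at 3 h. The 12 h arrays gave 5.24, 5.33 and 5.11, those at 72 h 4.66, 5.11 and 5.12. The highest single array was in sham and the lowest at 72 h. The differences were -0.07 ± 0.15, 0.03 ± 0.15 and -0.23 ± 0.15, with adjusted p of 0.783, 0.937 and 0.33. The 95% intervals ran from -0.41 to 0.27 at 3 h, from -0.31 to 0.37 at 12 h and from -0.57 to 0.11 at 72 h, so that a 2-fold change lay outside them.

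Casp4, its neighbour on chromosome 9, rose early and stayed up at 12 h. Levels were 3.09, 3.02 and 2.95 in sham and 4.49, 4.62 and 4.87 at 3 h. By 12 h the values were 4.79, 4.43 and 4.68, and by 72 h 3.33, 3.41 and 4.07. Every injured array exceeded every sham array, and the 3 h and 12 h arrays overlapped each other. The difference was 1.64 ± 0.20 at 3 h (3.11-fold, adjusted p = 0.000499), 1.61 ± 0.20 at 12 h (3.06-fold, adjusted p = 0.000375) and 0.58 ± 0.20 at 72 h (adjusted p = 0.0623), which was not called. Both early calls held under all alternatives but the paired test.

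Gsdmd, the pore-forming substrate, was called at 12 h on both of its probes and not at 3 h. On the first probe the levels were 2.80, 2.87 and 2.76 in sham and 2.68, 2.54 and 2.94 at 3 h. Values of 3.88, 4.08 and 4.06 followed at 12 h and of 3.14, 3.25 and 3.44 at 72 h. The 3 h arrays overlapped sham, the 12 h arrays were the highest, and the 72 h arrays lay between with no overlap on either side. On the junction-spanning probe the levels were 0.09, 0.28 and 0.13 in sham and 0.08, -0.14 and 0.27 at 3 h. At 12 h they were 1.19, 1.53 and 1.45, and at 72 h they were 0.44, 0.53 and 0.87. The same order of groups held on both probes.

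Gsdmd differed from sham by -0.09 on each probe at 3 h, with adjusted p of 0.658 and 0.698. It rose by 1.20 ± 0.13 and 1.23 ± 0.15 at 12 h (2.30-fold and 2.34-fold, adjusted p = 0.000191 and 0.00047). At 72 h the differences were 0.46 and 0.45 (adjusted p = 0.0298 and 0.0699), under 2-fold. The probes, from separate stretches of the transcript but read from the same RNA, differed by less than their standard errors.

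**Figure D2:**
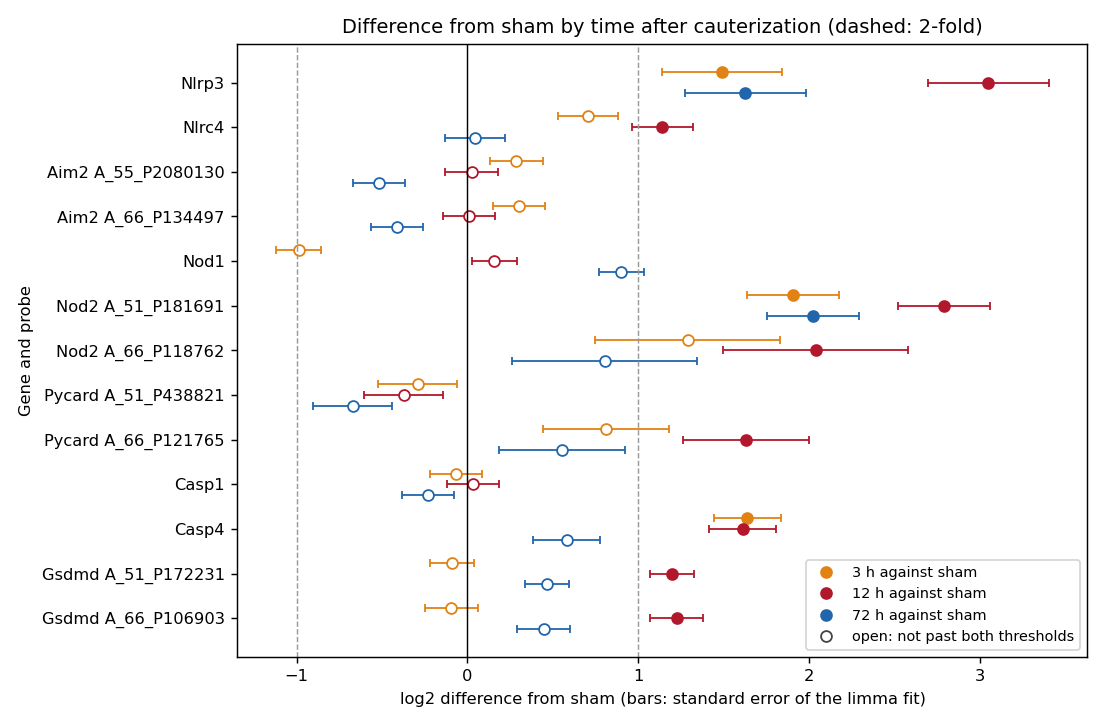
Difference of each probe from sham on the log2 scale at 3, 12 and 72 h, with the standard error of the limma fit as bars. Filled points passed both thresholds. Nlrp3 and the first Nod2 probe are filled at all 3 times, Casp4 at 3 and 12 h, Nlrc4 and both Gsdmd probes at 12 h, and Nod1 lies on the 2-fold line at 3 h.

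The steps between time points were tested in the same fit. From 3 h to 12 h, 4 of the 13 probes were called higher, against 1.86% of all probes, and 0 lower, against 1.42%. Nlrp3 rose by 1.56 ± 0.35 (adjusted p = 0.0252), Nod1 by 1.15 ± 0.13 (adjusted p = 0.00168), and Gsdmd by 1.29 ± 0.13 and 1.32 ± 0.15 on its probes (adjusted p = 0.000981 and 0.00175). Casp4 differed by -0.03 ± 0.20 over the same step (adjusted p = 0.946) and Nod2 by 0.89 ± 0.27 (adjusted p = 0.073). Within the slide shared by both groups the step was 1.76 for Nlrp3 (adjusted p = 0.067), which lost its call, 1.03 for Nod1 (adjusted p = 0.0141), and 1.26 and 1.29 for Gsdmd (adjusted p = 0.0141 and 0.0172). The Nlrp3 step was also not called with the replicate number as a block (adjusted p = 0.0576) or without 3 h replicate 1, 3 h replicate 3 or 12 h replicate 1, where it was 1.39, 1.45 and 1.16 (adjusted p = 0.0788, 0.0724 and 0.0595).

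From 12 h to 72 h, 3 probes were called lower, against 2.99% of all probes, and 0 higher, against 4.09%. Nlrp3 fell by 1.42 ± 0.35 (adjusted p = 0.0208), Nlrc4 by 1.10 ± 0.18 (adjusted p = 0.00274) and Casp4 by 1.03 ± 0.20 (adjusted p = 0.00607). Nod1 went the other way, with a difference of 0.74 ± 0.13 (adjusted p = 0.0045) that was under 2-fold. With the slide as a block the 3 differences were -1.02, -0.91 and -1.07 and none was called (adjusted p = 0.265, 0.0775 and 0.0764). Without 12 h replicate 1, 72 h replicate 1 or 72 h replicate 2, 1 probe was called lower, and without 72 h replicate 3 there were 5, among them both Nod2 probes. The second Pycard probe was the 1 called without 72 h replicate 1 (-1.40, adjusted p = 0.0382), and Nlrc4 the 1 called without either of the other 2 arrays.

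**Figure D3:**
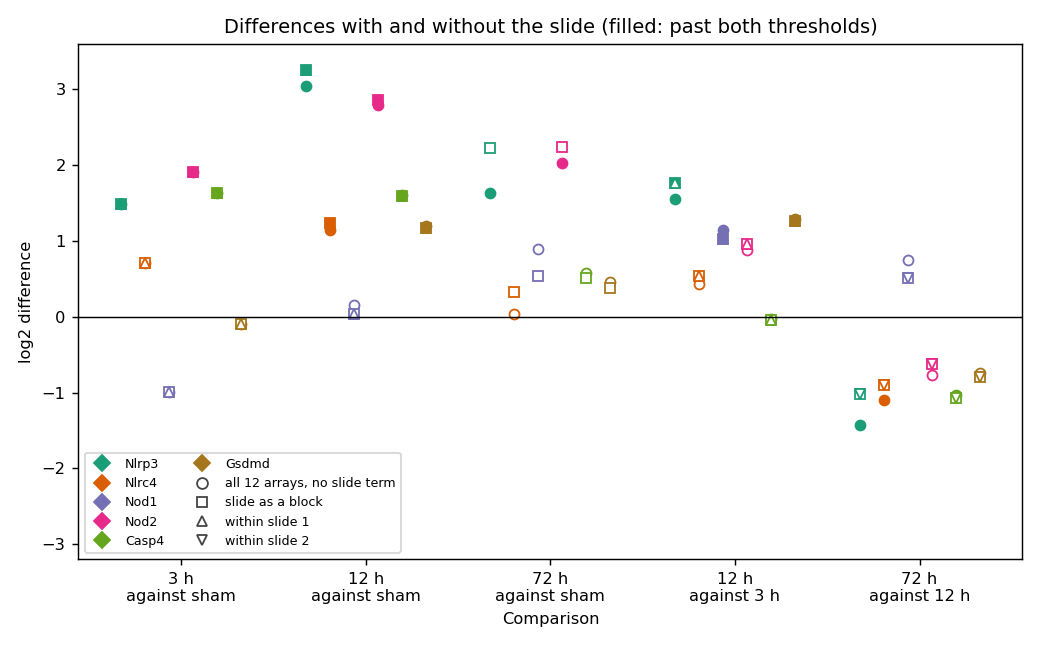
Log2 difference of 6 genes in each comparison, from all 12 arrays without a slide term (circles), with the slide as a block (squares) and within 1 slide (triangles). Filled symbols passed both thresholds, and symbols of equal value cover each other. Against sham, the 3 h values cannot move with the slide, since both groups lie on 1 slide. The 12 h values barely move, and there squares and triangles are the same estimate. At 72 h Nlrp3 and Nod2 stay at or above 1.63, but open symbols replace filled ones.

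The wider pathway was described with 5 lists of genes, each gene read by its brightest probe. Of the genes measured, whose number in each list is given below, 14 were called higher and 1 lower at 3 h. These counts were 20 and 0 at 12 h, then 17 and 1 at 72 h. Over all 37074 genes, the shares called higher were 3.26%, 4.1% and 4.55% in that order of times, the shares called lower 4.11%, 4.96% and 4.3%, and the median differences 0.08, -0.01 and -0.14. With the slide as a block, 8 list genes were called higher and 0 lower at 72 h, namely Mefv, Nlrp1b, Ifi204, Tmem173, Il1b, Il1a, Il33 and Pstpip1. Of those that lost the call, the 72 h difference of Gbp2 went from 1.10 to 0.46 (adjusted p = 0.65) and that of Casp12 from 1.06 to 0.63 (adjusted p = 0.276). The differences of Il1rn and Slc15a3 did not shrink in that fit. They went from 3.73 to 3.82 (adjusted p = 0.103) and from 2.74 to 2.82 (adjusted p = 0.0526). The 72 h values of list genes given below are from the fit without a slide term.

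The list of other inflammasome sensors held 18 measured genes, among them also NLR relatives such as Nlrx1 and the pseudogene Nlrp1c-ps. Among the 18, 3 h brought 2 calls up and 1 down, and both later times 5 up and 0 down, with medians of 0.22, 0.84 and 0.26. Mefv, which encodes pyrin, the sensor of inactivated RhoA, rose most, by 3.44, 5.44 and 4.43 (adjusted p = 0.000187, 1.06e-05 and 3.95e-05). Ifi204, a DNA-binding relative of Aim2, rose by 1.54, 1.45 and 2.05, and Nlrp1b, a sensor of protease attack, by 1.52 at 12 h and 2.43 at 72 h. Nlrx1, a mitochondrial NLR, rose by 1.85 and Nlrp9b by 1.54 at 12 h alone among the times tested against sham. Nlrp6, an epithelial NLR, fell by 1.16 at 3 h (adjusted p = 0.00555). Nlrp1c-ps and Nlrp10 were called at 72 h from sham signals not well above background, with bounds of 1.27-fold and 1.90-fold. The bound of Nlrp1c-ps is approximate, since 2 of its 72 h arrays were well above background, and it may share signal with Nlrp1b.

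The genes that act around caspase-1 and gasdermin D held the largest difference of the 5 lists. Their list of 18 genes held substrates, pore proteins and caspases, and also related cytokines (Il1a and Il33) and cytokine antagonists (Il1rn and Il18bp). Of the 18, 5, 6 and 6 were called higher at 3, 12 and 72 h and 0 lower, with medians of 0.19, 0.22 and 0.06. Il1b, the main substrate of caspase-1, rose by 6.74, 8.35 and 7.36 (adjusted p = 1.38e-05, 3.55e-06 and 8.45e-06). Il18, the other cytokine substrate, was not called against sham, with differences of -0.42, 0.27 and -0.90. The last had an adjusted p of 0.00569 but was under 2-fold. From 12 h to 72 h, a step that crosses the slides, Il18 was called lower at -1.17 (adjusted p = 0.00185). Il1a was not well above background in sham and was at least 14.4-fold, 45.1-fold and 18.5-fold higher. Il33 rose by 3.23, 3.60 and 3.43, and Il1rn, the receptor antagonist, by 5.63, 6.29 and 3.73. Casp8 rose by 1.35 and 1.03 at 3 and 12 h, Casp12 by 1.06 and Ninj1, which ruptures the membrane after pore formation, by 1.02 at 72 h, and Il18bp by 1.39 at 12 h. None of the other gasdermin genes listed (Gsdma, Gsdmc, Gsdmc2, Gsdmc3, Gsdmc4 and Dfna5) was called, and at 12 h they lay between -0.72 and 0.63.

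Of 17 partners of NOD signalling, 4, 3 and 2 were higher and 0 lower, with medians of 0.31, 0.36 and -0.03. Slc15a3, a transporter that brings peptidoglycan fragments to the cytosol, rose by 2.18, 4.09 and 2.74, and Tnfaip3, the deubiquitinase that restrains this pathway, by 2.71, 3.10 and 1.54. Birc3, a ubiquitin ligase of the complex, rose by 1.62 and 1.46 at 3 and 12 h. Ripk2, the kinase bound by both NOD proteins, rose at 3 h by 1.20 (adjusted p = 0.00433) and differed by 0.50 and 0.39 afterwards. Card9 was well above background on 0 arrays.

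Of 14 nucleic acid sensors, 1, 2 and 1 were higher and 0 lower, with medians of 0.32, 0.18 and -0.45. Tmem173, which encodes STING, rose by 1.37 and 1.55 at 12 and 72 h, Zbp1 by 1.91 at 12 h, and Trex1, an exonuclease that removes cytosolic DNA, by 1.14 at 3 h. The RNA helicase genes Ddx58 and Ifih1 were not called, with differences between -0.96 and 0.46.

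Of 18 regulators, 2, 4 and 3 were higher and 0, 0 and 1 lower, with medians of 0.10, 0.35 and 0.07. Gbp5, a guanylate-binding protein tied to NLRP3 and to lipopolysaccharide sensing, rose by 2.65 at 3 h, and Gbp2 by 1.29, 1.50 and 1.10. Pstpip1, a partner of pyrin, rose by 1.73 and 2.40 at 12 and 72 h, P2rx7, the ATP-gated channel upstream of NLRP3, by 1.27 at 72 h, and Serpinb1a, a neutrophil protease inhibitor, by 1.50 and Trim30a by 1.41 at 12 h. Trim31, a ubiquitin ligase for NLRP3, fell by 1.35 at 72 h. Nek7, which NLRP3 needs for assembly, differed by 0.52, 0.02 and 0.17 and was not called.

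**Figure D4:**
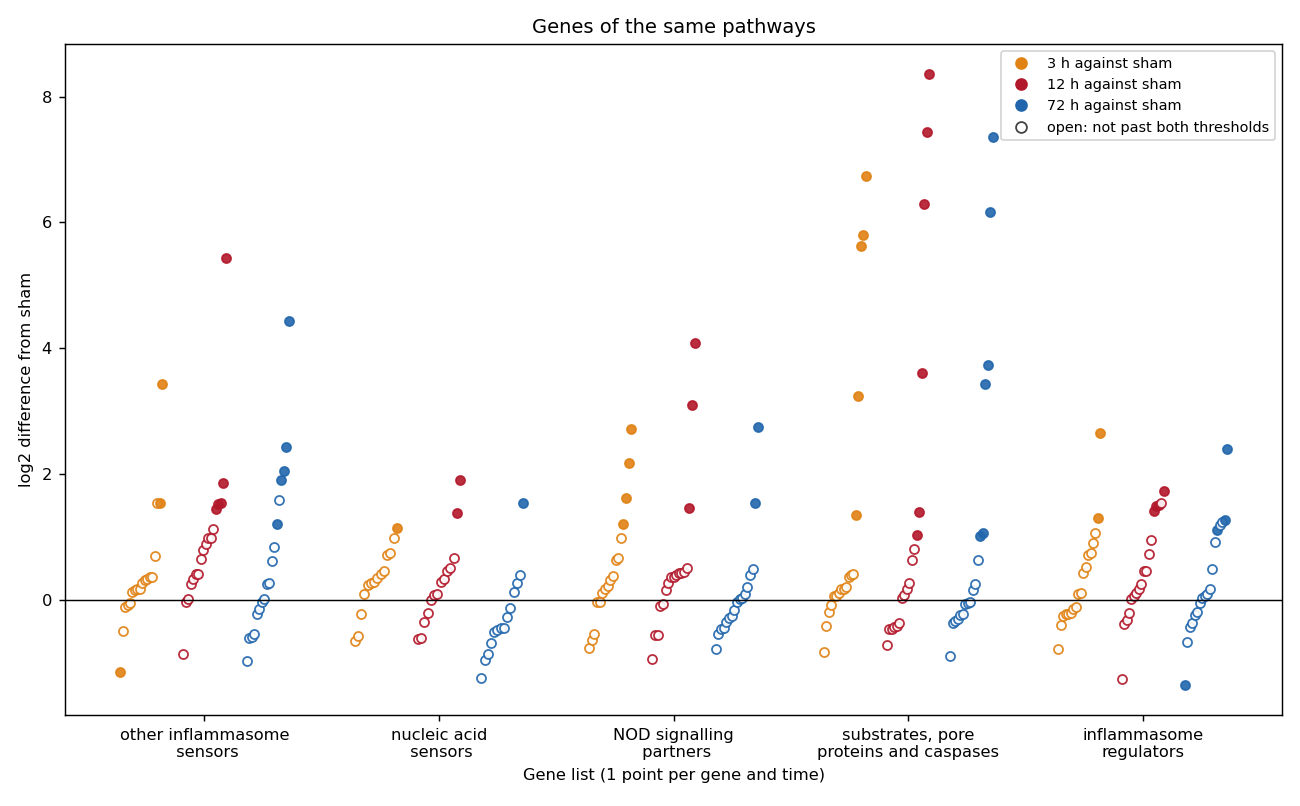
Log2 difference from sham of the genes in 5 lists around cytosolic sensing and the inflammasome, 1 point per gene at 3, 12 and 72 h. Filled points passed both thresholds. The highest points are Il1b in the list of substrates, at 6.74, 8.35 and 7.36, and Mefv among the sensors, while most points lie within 1 unit of 0.

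Markers of several cell types moved over the same times, and their part in the differences of the sensor genes was not tested. Of 12 neutrophil markers, 8, 11 and 8 were called higher at 3, 12 and 72 h. Their summed level on the linear scale, relative to the 75th percentile, was 81.3 to 92.5 in sham, 362 to 604 at 3 h, 842 to 888 at 12 h and 360.5 to 694.5 at 72 h. In this and the sums below the brightest probes weigh most, so a sum can move apart from most of its markers. Cxcr2, Ngp, Ltf and Stfa2l1 were well above background on 0 of 3 sham arrays. S100a8 was so on 2 of 3, which makes the size of its difference from sham uncertain. The markers did not all follow 1 course. S100a8, a calgranulin, differed from sham by 10.79, 12.33 and 10.96 at 3, 12 and 72 h, Ly6g, the surface marker of mouse neutrophils, by 3.61, 3.65 and -0.08, and Csf3r, the receptor for G-CSF, by -0.44, -0.34 and -0.40. Ly6g fell by 3.73 from 12 h to 72 h (adjusted p = 0.0019), and Csf3r was not called.

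Of 13 monocyte and macrophage markers, 1, 4 and 9 were higher and 2, 1 and 0 lower, with sums of 172 to 220 in sham, 275 to 415 at 3 h, 373 to 415 at 12 h and 419 to 457 at 72 h. Their median differences were 0.10, 0.16 and 1.61, and their courses were unlike. Adgre1, a defining macrophage marker, differed by 0.29, 1.21 and 2.66. Cx3cr1 differed by -2.79, -1.21 and 0.58, and Mertk by -1.03, -0.51 and -0.77, the markers called lower at 3 h. Ly6c2, the 1 called higher at 3 h, differed by 2.29, 2.56 and 0.04.

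Of 12 epithelial markers, 1, 0 and 0 were higher and 0, 1 and 3 lower, with sums of 1930 to 2130 in sham, 2460 to 2742 at 3 h, 1764 to 2193 at 12 h and 1019 to 1393 at 72 h. Epcam, a defining marker of these cells, was well above background on all 12 arrays. Of 7 smooth muscle markers, 0 were higher and 1, 7 and 6 lower, with sums of 548 to 583, 298 to 361, 173 to 276 and 201 to 265. Of 6 mesothelial markers, 2 were lower at 3 h and at 12 h and 2 higher at 72 h, with sums of 5.10 to 7.71, 6.32 to 7.12, 5.70 to 6.51 and 8.55 to 15.2.

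Few markers of lymphocytes and dendritic cells were called, although at 72 h the summed T cell and B cell markers lay wholly below sham and the summed dendritic cell markers wholly above it. Of 8 T cell markers, 1 was lower at 3 h and none was called later, with sums of 11.7 to 15.6, 8.53 to 14.8, 12.0 to 20.6 and 7.38 to 11.5. Of 6 B cell markers 0 were called, although the sum at 3 h ran from 1.15 to 21.6, against 13.9 to 24.8 in sham, 12.4 to 29.3 at 12 h and 4.80 to 12.8 at 72 h. Of 7 dendritic cell markers 1 was higher at 3 h, with sums of 2.56 to 3.16, 3.36 to 3.71, 3.13 to 3.62 and 3.34 to 4.60.

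For each member with a called probe against sham, the genes with the most similar profiles were found among 20791 genes well above background on all arrays. Likeness was the root mean square distance between profiles over the 12 arrays, each centred on its own mean, and it is a description of shared time course. Slc2a3, a glucose transporter, Abtb2 and Pim1, a kinase, came nearest to Nlrp3, at 0.28, 0.29 and 0.34, where the spread of Nlrp3 about its own mean was 1.15. Slfn2, Abtb2 and Pim1 came nearest to Nod2, at 0.23, 0.27 and 0.28 against a spread of 1.07, so Nlrp3 and Nod2 shared 2 of 3 nearest genes. Birc3, the NOD pathway ligase described above, was nearest to Casp4 at 0.16, followed by Tiparp and Fmnl2 at 0.16 each, against 0.73. Kctd5, AI661453 and Metrnl were nearest to Nlrc4 at 0.14, 0.14 and 0.16 against 0.51. Armc7 and Skap2 were nearest to Gsdmd at 0.18 and 0.20 against 0.52, followed by an unnamed noncoding transcript at 0.21. Nudt19, Grhpr and Gjb1 were nearest to the Pycard transcript, whose own probe was not called, at 0.12, 0.13 and 0.13 against 0.34.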

How the data were processed

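Whole-cecum RNA from 12 samples was labelled with 1 dye and read on the Agilent SurePrint G3 Mouse GE v2 8x60K array, with groups taken from the sample labels. The authors deposited the output of Feature Extraction 11.5.1.1, whose intensity values are linear, corrected for background spot by spot and not scaled between arrays. The log2 values that the authors deposited beside it were scaled to the 75th percentile in GeneSpring GX 14.9, per the methods, and are centred by row. They served as an alternative only.

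Here the processed intensity was put on the log2 scale and the 75th percentile of each array, taken over its non-control probes, was subtracted. Control and outlier spots were left out, and spots of a probe were averaged. A linear model with 1 mean per group was fitted to all arrays together in limma 3.58.1 under R 4.3.3, with moderated statistics from eBayes, and p-values were adjusted over 56605 probes. The probe with the highest mean stood for a gene in lists. A probe not well above background on any array of 1 group got a lower bound of its fold, from the lowest signals well above background. The other group entered with its mean over all its arrays, so the bound is approximate where some of those were not well above background. Precision is limited by having 3 arrays per group.

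The 9 genes, the pathway and marker lists and the tests were chosen with earlier results of these data known. The genes to be named were all probes of the 9, up to 6 called genes with the largest differences in each pathway list, any called against its list, the 3 nearest profiles of each gene with a call, marker genes, and genes that check the labelled sex. The nearest profiles of Pycard entered through the call of its second probe. The Naip genes, Nlrp10, Ddx58, Ifih1, Nek7, Il18, Card9, Casp12, Ninj1, P2rx7 and the other gasdermin genes were named outside this rule, after their values were seen. Promoters are from RefSeq (GRCm38.p6), and probe sequences and mm9 positions from the array files. Mnda, listed among the sensors, was not found on the array by name.

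The alternatives changed the scaling (quantile, or a percentile over probes above background or over all spots), the background (normexp, offset 50), the source (the authors' table), the handling of dim and outlier spots, the fit (slide block, replicate block, trend with robust, only sham and 1 time, and a test paired by replicate number), the thresholds and the choice of probe, or left out 1 array. The percentile over all spots and the fits within single slides were chosen after seeing the data.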

Additional observations from a re-analysis of the deposited data

Results flagged for a closer look

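Of the 13 probes, 7 steps between successive time points passed the test of the step itself, so the effect at 1 time differed from that at the next. From 3 h to 12 h these were Nlrp3 at 1.56, Nod1 at 1.15, and Gsdmd at 1.29 and 1.32 on its probes. From 12 h to 72 h they were Nlrp3 at -1.42, Nlrc4 at -1.10 and Casp4 at -1.03, all on the log2 scale by limma. The steps from 12 h to 72 h also cross the slides. Within the slide that held both times, a single 12 h array was available, and the 3 differences were -1.02, -0.91 and -1.07. The fit with the slide as a block gave these same estimates, so it is not a separate check. The part of the slide in these steps was not tested beyond those values.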

How the results depend on the processing

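Over 29 alternatives, 0 called differences changed sign. Of the values of single probes of the 9 genes, 1631 stayed on their side of the thresholds, 61 lost and 19 gained a call, and of the counts of calls 376 stayed within 1.5 times and 54 did not. A Student's test paired by replicate number, which the study's general statistics name for pairs of groups but not for the arrays, was also run. After adjustment it called 0 probes of the whole array against sham at each time, and 1 and 0 at the steps. Its 0 calls among the 13 probes in each of the 5 comparisons, and 0 among pathway genes at each time, therefore cannot set these genes apart. With unadjusted p and the 2-fold threshold it called 3, 8 and 2 of the 13 at 3, 12 and 72 h, against 3336, 4133 and 3762 of all probes. At the steps it called 3 and 1 of the 13, against 1435 and 2706 of all probes.

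With the slide as a block, 0 of the 13 probes were called higher at 72 h and 0 lower from 12 h to 72 h, and pathway calls at 72 h went from 17 higher and 1 lower to 8 and 0. Within slide 2 that step rests on 1 array of 12 h and repeats the slide-block estimates. Within slide 1, pathway calls lower at 12 h went from 0 to 1. Normexp left 1 of the 13 called higher at 72 h, and 0 lower from 12 h to 72 h. Nod1 made 1 probe called lower at 3 h under quantile scaling, both other percentiles and no fold threshold. An adjusted p below 0.01 left 1 probe higher at 72 h. With no fold threshold, 4 probes were higher and 1 lower at 72 h, 1 was higher and 6 lower from 12 h to 72 h, and 7, 6 and 14 pathway genes were lower at the 3 times. At 12 h, 1 pathway gene was lower under quantile scaling, the percentile over probes above background and each time with sham alone. At 72 h, 2 were lower under quantile scaling, the dim-probe filter, the percentile over all spots, trend with robust and each time with sham alone.

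The numbers of the replicates gave no sign of pairing, with correlations of deviations from -0.404 to 0.264 over 18 same-numbered pairs and from -0.296 to 0.385 over 36 others. With a replicate block, pathway calls were 15 higher and 1 lower, 21 and 0, and 17 and 2. The Nlrp3 step to 12 h lost its call, and no other call of the 13 probes changed.

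Leaving out 1 array at a time gave 2 to 3, 7 to 8 and 2 to 3 probes called higher at 3, 12 and 72 h. It gave 0 to 1 lower at 3 h, 3 to 4 higher at 12 h against 3 h and 1 to 5 lower at 72 h against 12 h. Pathway calls ran from 14 to 18, 17 to 21 and 14 to 18 higher, and from 0 to 1, 0 to 1 and 1 to 3 lower. The cause of these moves was not tested. Signal over background limited the second Nod2 and second Pycard probes and Nlrp3 in sham.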
